A study of Mus musculus with 8 samples.

Results

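White adipose tissue holds, beside its fat-storing cells, fibroblasts and adipocyte progenitors, and 38 genes that mark these cells or are made mainly by them were followed here between wildtype and Sel1l-/- mice. Each gene was read from its probe set (a group of probes for 1 transcript) with a single gene symbol and the highest mean over all arrays. Of the 38 genes, 36 had such a probe set, among 18820 genes measured in all, and Fbn1 and Ly6a were not analysed here. The tissue came from 8 male C57BL/6 mice of mixed N and J substrains, each on an array of its own, after 5 weeks of a high fat diet (Research Diets D12492). In 4 mice a floxed Sel1l was deleted by a Cre recombinase driven by the adiponectin promoter, which is active in fat-storing adipocytes and not in their progenitors, and 4 wildtype (WT) mice were the controls. All 8 mice ate the diet. The sources used here do not give the ages, the fat depot or whether WT mice carried floxed alleles. The Sel1l protein serves the ubiquitin ligase Hrd1 as its adapter when misfolded proteins are removed from the endoplasmic reticulum, and the series title ties the study to lipoprotein lipase.

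Adipocyte progenitors are fibroblast-like cells that lie along vessels and in the connective tissue around the fat lobules. They carry the receptors of platelet-derived growth factor (PDGF), and a Dpp4-bearing population of the connective tissue sheath can give rise to more committed preadipocytes. Bone morphogenetic proteins (BMPs) and insulin-like growth factors push such cells toward the fat lineage, and secreted binding proteins hold these factors in check. The same cells lay down much of the matrix of fat, such as small proteoglycans and microfibrils. In these bulk samples, fewer cells of a type and less RNA per cell cannot be told apart.

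Values are log2 intensities, and a log2 fold change (log2FC) is the Sel1l-/- mean minus the WT mean. An adjusted p is limma's, corrected over all genes. The mouse IDs hold a letter and a number of unknown meaning, each tried as a block, called the letter block and the number block. Sel1l itself read 10.48, 10.57, 10.58 and 10.65 in WT 1 to 4 and 9.56, 9.78, 9.72 and 10.07 in Sel1l-/- 1 to 4 (log2FC -0.79, standard error 0.10, adjusted p = 0.0109). The groups did not overlap, and Sel1l was lower where the labels place the deletion. Neither block kept this call, at a log2FC of -0.98 for the letter (adjusted p = 0.151) and -0.80 for the number (0.0813). Array medians ran from 6.05 to 6.08 in WT and from 6.10 to 6.14 in Sel1l-/- mice. At an adjusted p under 0.05, 1.04% of the genes rose and 0.685% fell. The adipocyte markers were bright, with list means of 12.49 to 12.80 on WT and 12.20 to 12.61 on Sel1l-/- arrays, so the defining markers of the labelled tissue were present. All 7 had negative values (median -0.11), none passed, and 1 was lower at an unadjusted limma p under 0.05 (7.85% of all genes). That 1 was Adipoq, the adiponectin gene, at 12.53 to 12.89 in WT and 11.80 to 12.33 in Sel1l-/- mice. Its log2FC was -0.56 (limma adjusted p = 0.0753, and 0.0204 with the replicate block described below). With the letter block the median of the 7 was 0.03. Skeletal muscle markers lay between 4.90 and 5.14 on all arrays. With 4 arrays a group, their number limits the precision.

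Most of the progenitor genes were a little dimmer in Sel1l-/- fat, and only 1 of the differences passed the test of single genes. The growth factor binding protein Igfbp5 fell, to a 1.51-fold lower level, close to the threshold. Bmp4, the fibulin Fbln1, the actin-severing protein Gsn and the transcription factor Osr1 lay lower in all 4 Sel1l-/- mice than in any WT mouse. The proteoglycan Cspg4 lay higher in all 4. None of these 5 passed in the main limma fit, which is the one meant wherever no other setting is named. Each of them passed in some alternative fit without a block, such as with array weights or without WT 4. The 2 PDGF receptors and the abundant proteoglycans Dcn and Lum overlapped between the groups.

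By count, 28 of the 36 measured genes had a log2FC below 0, where 51.2% of all genes did, and the median was -0.28, beside 0.00 over all genes. At an adjusted p under 0.05, 1 member was lower (0.685% of all genes were) and none was higher (1.04%). At an unadjusted limma p under 0.05, 16 were lower (7.85% of all genes) and 2 higher (7.15%). The arrays of the groups did not overlap in 8 members that were lower (5.07% of all genes) and in 1 that was higher (5.22%). The titles number the mice of both groups 1 to 4. Taken as pairs by that number, 14 members were lower in every pair (15.3% of all genes) and 1 was higher in every pair (14.7%). With this replicate number as a block, 5 members fell (1.95% of all genes), namely Thy1, Bmp4, Fbln1, Gsn and Osr1. Cspg4 rose (1.9%), while Igfbp5 no longer passed. The block was chosen from these same values, so its calls are not independent support. With the letter block (0.0691% of all genes lower) and with the number block (0.0159%) no member fell by limma's adjusted p. With the letter block the median was -0.18, and the sign turned in Dpp4, Pi16, Fap, Ackr3, Bmp7, Sema3c, Wisp2, Lum, Efemp1 and Creb5. Members are not independent of each other, since genes of 1 cell type share their source, and no test of the list as a whole was made.

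**Figure D1:**
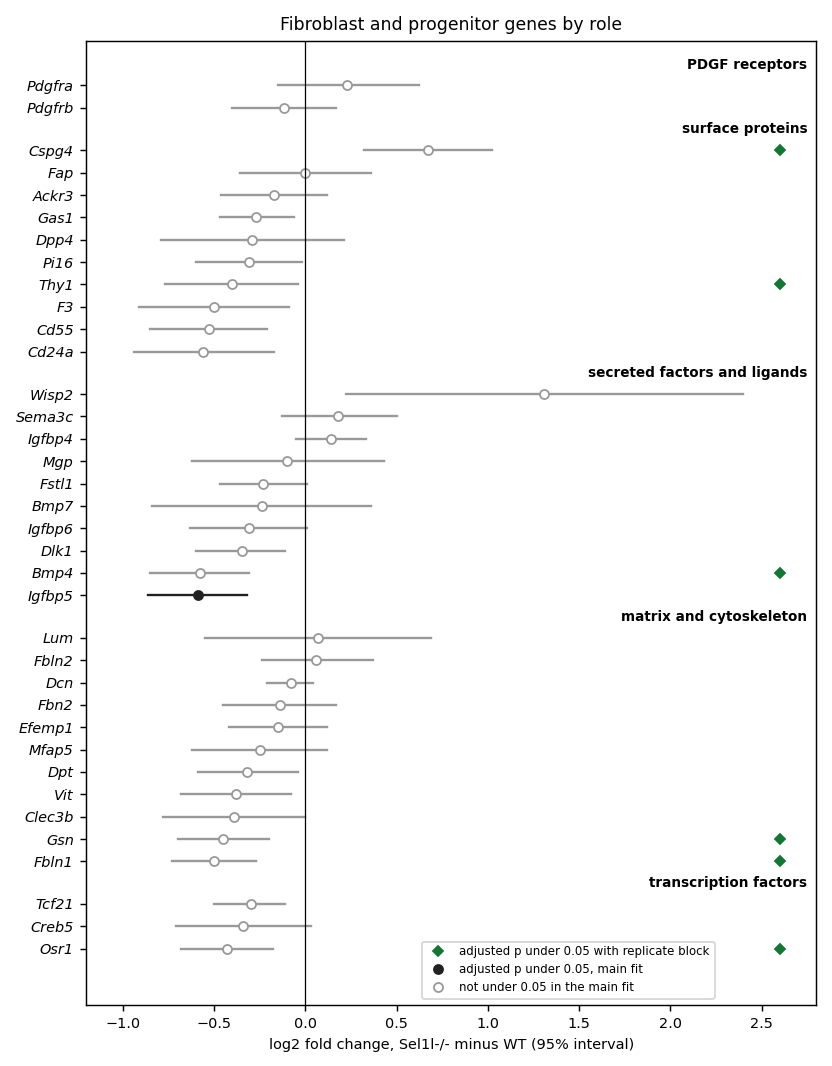
Log2 fold change of each of the 36 measured genes (Sel1l-/- minus WT, 4 arrays each, x axis) with its 95% interval from limma, grouped by role. The filled black point is Igfbp5, the member with an adjusted p under 0.05, and green diamonds mark the 6 members under 0.05 with the replicate number as a block. Of the 36 points, 28 lie left of 0.

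Among the receptors, Pdgfra, the PDGF receptor that defines adipocyte progenitors, read 9.39, 10.04, 9.66 and 9.36 in WT and 9.56, 9.91, 9.80 and 10.11 in Sel1l-/- mice. The groups overlapped, with Sel1l-/- 4 the highest of the 8 arrays. Its log2FC was 0.23 (95% interval -0.15 to 0.62, adjusted p = 0.582). Pdgfrb, which pericytes carry as well, read 10.50, 10.74, 10.41 and 10.84 against 10.32, 10.50, 10.43 and 10.77, a log2FC of -0.12 (interval -0.40 to 0.17, adjusted p = 0.726). For both receptors the difference lay within the spread between mice.

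Of the 10 measured surface proteins, 8 had negative fold changes, and by limma none passed the adjusted threshold. At an unadjusted limma p under 0.05, 6 were lower (7.85% of all genes) and 1 higher (7.15%). Cspg4, the proteoglycan NG2 of pericytes and some progenitors, read 8.96, 8.91, 8.89 and 8.26 in WT and 9.54, 9.53, 9.34 and 9.30 in Sel1l-/- mice. Every Sel1l-/- array lay above every WT array, and WT 4 lay well below the other WT arrays. The log2FC was 0.67 (standard error 0.15, adjusted p = 0.0793). The adjusted p was 0.0303 with the replicate block and 0.0303 without WT 4, where the log2FC was 0.51. With the letter block, where WT 4 is the only WT mouse compared within a letter, it was 1.27 (adjusted p = 0.0164). It was 0.63 with the number block (adjusted p = 0.235), and leaving out any 1 array other than WT 4 gave 0.63 to 0.74 (adjusted p = 0.103 to 0.201). Most other pericyte and smooth muscle markers had negative values, as given further on.

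Cd55, the complement-decay accelerating factor that marks Dpp4-bearing progenitors, read 8.90, 8.86, 9.40 and 8.68 in WT. It read 8.41, 8.38, 8.40 and 8.54 in Sel1l-/- mice, all below the lowest WT array. The log2FC was -0.53 (standard error 0.14, adjusted p = 0.118). Dpp4 itself, a peptidase of the cell surface, read 9.86, 9.64, 10.27 and 9.43 against 9.39, 9.76, 9.86 and 9.05. Its groups overlapped (log2FC -0.29, interval -0.79 to 0.21, adjusted p = 0.606). Pi16, a peptidase inhibitor of the same cells, had a log2FC of -0.31 (adjusted p = 0.300).

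Thy1, a glycoprotein of fibroblasts and T cells, read 9.49, 9.68, 9.93 and 9.34 in WT and 8.97, 9.20, 9.58 and 9.09 in Sel1l-/- mice. The groups overlapped, but within the numbered pairs each Sel1l-/- mouse was lower, by 0.26 to 0.52 in size. The log2FC was -0.40 (adjusted p = 0.284), with an adjusted p of 0.0363 in the replicate block, and it was -0.26 with the letter block (adjusted p = 0.787). Cd24a, a marker of early progenitors and of several blood cells, read 9.27, 9.22, 9.29 and 9.47 against 8.53, 9.25, 8.86 and 8.40 (log2FC -0.56, adjusted p = 0.168). Sel1l-/- 2 lay at the WT level and the other 3 below it. F3, tissue factor, which marks a progenitor subset that restrains fat formation, had a log2FC of -0.50 (adjusted p = 0.239). Gas1, a growth arrest protein, had one of -0.27 (adjusted p = 0.209), and the chemokine-scavenging receptor Ackr3 one of -0.17 (adjusted p = 0.594). Fap, a fibroblast peptidase, read 7.35 to 7.92 in WT and 7.26 to 7.83 in Sel1l-/- mice, with a log2FC of 0.00 (interval -0.36 to 0.36) that changed sign with the arrays centred on their medians (-0.04).

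**Figure D2:**
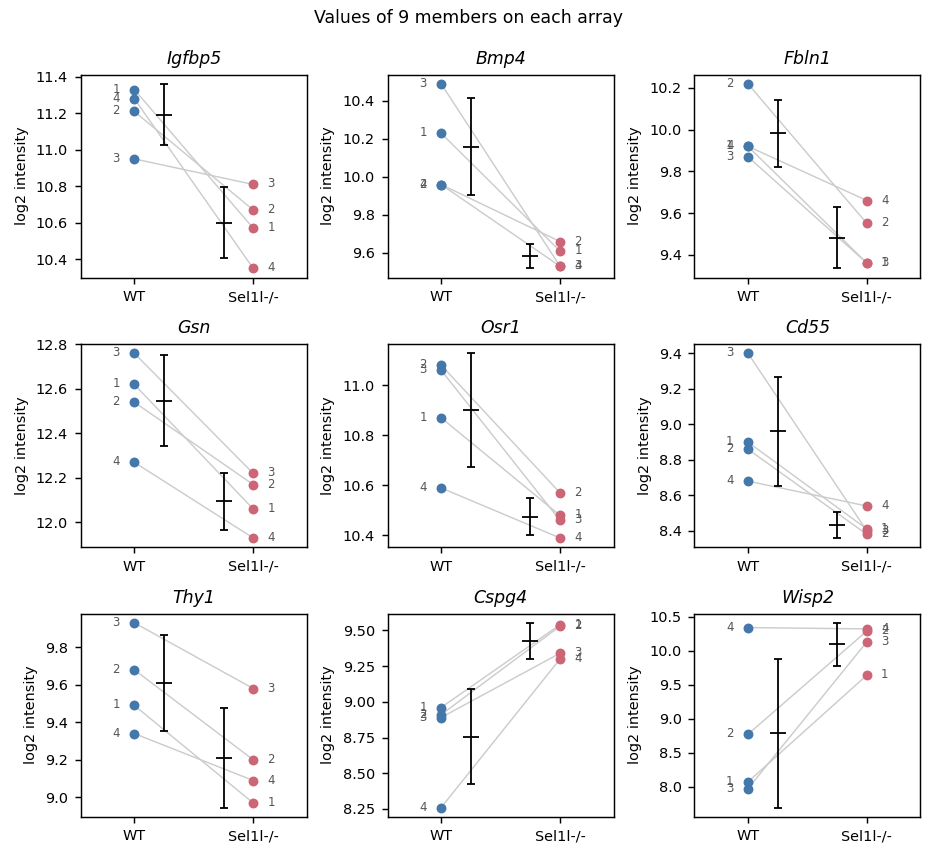
Log2 intensity (y axis) of 9 members on each array, WT in blue and Sel1l-/- in red, with small digits giving the replicate number and grey lines joining mice of the same number. Black bars are the mean ± SD of 4 arrays. Igfbp5, Bmp4, Fbln1, Gsn, Osr1 and Cd55 lie lower in all Sel1l-/- mice and Cspg4 higher, while for Wisp2 the WT 4 array sits among the Sel1l-/- arrays.

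The secreted factors held the member that passed the test. Igfbp5, which binds insulin-like growth factors and also sits in the matrix, read 11.33, 11.21, 10.95 and 11.28 in WT. It read 10.57, 10.67, 10.81 and 10.35 in Sel1l-/- mice, so that the highest Sel1l-/- array, number 3, was below the lowest WT array, also number 3. It fell from 11.19 ± 0.17 to 10.60 ± 0.20 (SD, n = 4), a log2FC of -0.59 (standard error 0.12, adjusted p = 0.0475). The call was close to the threshold. It was lost with the replicate block (adjusted p = 0.0661) and when any 1 array other than WT 3 was left out (up to 0.138, without WT 1; 0.0496 without WT 3). The letter block (0.399) and the number block (0.143) did not keep it either. With 1 array left out the log2FC lay between -0.67 and -0.51. It was -0.66 within the mice of code letter F, and -0.49, -0.75 and -0.28 within the code numbers 5, 7 and 9.

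Bmp4, a BMP that commits progenitors to the fat lineage, read 10.23, 9.96, 10.49 and 9.96 in WT and 9.61, 9.66, 9.53 and 9.53 in Sel1l-/- mice. The Sel1l-/- arrays lay close together and all below WT. The log2FC was -0.58 (standard error 0.12), or 1.49-fold, and the adjusted p of 0.0547 missed the threshold, while it was 0.0496 with the replicate block. With the letter block the log2FC was -0.33 (adjusted p = 0.647), and with the number block -0.57 (0.125). Bmp7, a BMP linked to brown fat, read 7.10, 5.81, 6.41 and 5.85 against 6.06, 6.13, 6.19 and 5.84, with WT 1 high and the others mixed (log2FC -0.24, adjusted p = 0.742). A second, dimmer probe set of Bmp7 read 4.09 to 4.45 and was not used.

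The 250 bases before the transcription start of Igfbp5 and Bmp4, the secreted members with the smallest p, and of Cspg4, the member with the smallest p in the other direction, chosen after their values were seen, are given from RefSeq for assembly GRCm38.p6, 5′ to 3′ on the gene's strand. Capitals mark matches to any of 5 motifs searched on both strands, TATAAA (the TATA box), TGANTCA (AP-1), GGAATG (TEAD), TGACGTGG (the unfolded protein response element) and CCACG (part of the ER stress element, also contained in the reverse of TGACGTGG). Igfbp5 lies at chr1:72874866-72875115 on the minus strand, Bmp4 at chr14:46390670-46390919 on the minus strand, and Cspg4 at chr9:56864854-56865103 on the plus strand.
Igfbp5: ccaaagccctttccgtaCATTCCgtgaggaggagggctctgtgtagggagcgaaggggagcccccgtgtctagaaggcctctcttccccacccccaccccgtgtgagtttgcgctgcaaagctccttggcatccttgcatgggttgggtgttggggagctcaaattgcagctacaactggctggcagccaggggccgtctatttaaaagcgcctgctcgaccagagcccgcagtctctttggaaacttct
Bmp4: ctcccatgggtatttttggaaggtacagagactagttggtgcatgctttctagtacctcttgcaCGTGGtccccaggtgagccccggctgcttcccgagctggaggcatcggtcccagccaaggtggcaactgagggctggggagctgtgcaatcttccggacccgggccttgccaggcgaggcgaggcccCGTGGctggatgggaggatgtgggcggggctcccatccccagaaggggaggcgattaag
Cspg4: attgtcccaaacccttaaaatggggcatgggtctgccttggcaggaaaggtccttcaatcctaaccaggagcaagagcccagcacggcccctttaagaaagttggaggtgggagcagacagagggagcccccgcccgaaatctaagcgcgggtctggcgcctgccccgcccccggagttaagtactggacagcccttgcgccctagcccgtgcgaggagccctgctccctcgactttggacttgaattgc
Igfbp5 held GGAATG once, on the other strand, as do 12.6% of the 32851 promoters of that length in the table on either strand. Bmp4 held CCACG at 2 places on the other strand, and 28.3% of promoters hold it. Cspg4 held none of the 5. The table had entries for 22 of the 36 members, 26 entries in all, of which 8 held CCACG, 4 TATAAA, 3 TGANTCA, 2 GGAATG and none TGACGTGG, against 28.3%, 12.4%, 6.75%, 12.6% and 0.563% of all promoters. These are matches of letters and not measured binding.

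Wisp2, listed as Ccn5, a secreted protein of the CCN family made by fat progenitors, had the widest range. It read 8.07, 8.77, 7.97 and 10.34 in WT and 9.64, 10.29, 10.13 and 10.32 in Sel1l-/- mice. WT 4 stood at the top of all 8 arrays, and the other 3 WT mice lay below every Sel1l-/- mouse. The log2FC was 1.31 (standard error 0.48, adjusted p = 0.247), and it was 1.83 without WT 4 (adjusted p = 0.0180). With the letter block the sign turned (-0.37, adjusted p = 0.800), since that block rests on WT 4 as its WT mouse. Dlk1, the inhibitor of fat formation also known as Pref-1, read 6.53, 6.42, 6.03 and 6.22 against 5.88, 6.02, 5.92 and 5.98. Its groups did not overlap, though WT 3 and Sel1l-/- 2 differed by little (log2FC -0.35, adjusted p = 0.159).

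The remaining secreted members differed less. Igfbp6, which prefers insulin-like growth factor 2, read 10.97 to 11.55 in WT and 10.75 to 11.24 in Sel1l-/- mice (log2FC -0.31, adjusted p = 0.351). Igfbp4 went the other way, 11.77 to 11.87 against 11.71 to 12.08 (0.14, adjusted p = 0.510). Fstl1, a follistatin-like secreted protein, had a log2FC of -0.23 (adjusted p = 0.364), and Mgp, an inhibitor of calcification and of BMPs, one of -0.10 (interval -0.62 to 0.43, adjusted p = 0.888). Sema3c, a semaphorin, had one of 0.18 (adjusted p = 0.606).

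Of the 11 measured matrix and cytoskeleton genes, 9 had negative fold changes, and none passed the adjusted limma threshold. At an unadjusted limma p under 0.05, 5 were lower (7.85% of all genes). Fbln1, a fibulin of basement membranes and elastic fibres, read 9.92, 10.22, 9.87 and 9.92 in WT and 9.36, 9.55, 9.36 and 9.66 in Sel1l-/- mice. All Sel1l-/- arrays were below all WT arrays (log2FC -0.50, standard error 0.10, adjusted p = 0.0553, 0.0330 with the replicate block, 0.503 with the letter block and 0.130 with the number block). Gsn, gelsolin, an actin-severing protein with a secreted form that is strong in progenitors, read 12.62, 12.54, 12.76 and 12.27 against 12.06, 12.17, 12.22 and 11.93. These groups did not overlap either, with both mice numbered 4 the lowest of their group (log2FC -0.45, adjusted p = 0.0970, and 0.0277 with the replicate block). It was -0.16 with the letter block (adjusted p = 0.796), where WT 4 is the WT mouse, and -0.44 with the number block (0.230).

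Dpt, dermatopontin, which helps collagen fibrils form, read 12.02 to 12.59 in WT and 11.90 to 12.11 in Sel1l-/- mice (log2FC -0.32, adjusted p = 0.264). Clec3b, tetranectin, had a log2FC of -0.39 (adjusted p = 0.333) and Vit, vitrin, one of -0.38 (adjusted p = 0.228). The microfibril genes and the fibulins other than Fbln1 gave smaller values. Mfap5, a microfibril glycoprotein, had a log2FC of -0.25 (adjusted p = 0.533), Efemp1, fibulin 3, one of -0.15 (adjusted p = 0.615), and Fbln2, fibulin 2, one of 0.06 (adjusted p = 0.872). Fbn2, a fibrillin, read 4.19 to 4.86 on the 8 arrays, where the lower quartile of all probe sets was 4.33 to 4.37, and a level over background is not shown for it.

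Dcn, decorin, a small leucine-rich proteoglycan, read 12.82, 12.93, 12.90 and 12.81 in WT and 12.76, 12.81, 12.73 and 12.82 in Sel1l-/- mice, a log2FC of -0.08 with an interval of -0.21 to 0.04 (adjusted p = 0.556). That interval does not reach the log2FC of Igfbp5. Lum, lumican, of the same family, read 10.00, 10.94, 10.20 and 10.61 against 9.88, 10.56, 10.50 and 11.08. It varied more between mice of 1 group than between the groups (log2FC 0.07, interval -0.55 to 0.69, adjusted p = 0.937).

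All 3 transcription factors had negative fold changes, and none passed the adjusted limma threshold. At an unadjusted limma p under 0.05, 2 were lower (7.85% of all genes). Osr1, a zinc finger factor of mesenchymal progenitors, read 10.87, 11.08, 11.06 and 10.59 in WT and 10.48, 10.57, 10.46 and 10.39 in Sel1l-/- mice. The groups did not overlap, and WT 4 came closest to the Sel1l-/- arrays (log2FC -0.43, standard error 0.11, adjusted p = 0.107, and 0.0470 with the replicate block). It was -0.07 within code letter F, where WT 4 is the WT mouse. Tcf21, a helix-loop-helix factor of white fat progenitors, read 7.07, 7.07, 7.16 and 6.95 against 6.94, 6.70, 6.81 and 6.58. The lowest WT array, number 4, lay just above the highest Sel1l-/- array, number 1 (log2FC -0.30, adjusted p = 0.140). Creb5, a leucine zipper factor, had a log2FC of -0.34 (adjusted p = 0.384).

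Some of the members, though not all, also varied alike between mice of 1 group. The median member, taken as its value minus that gene's mean over all 8 arrays, stood at 0.12, 0.15, 0.24 and -0.02 in WT 1 to 4 and at -0.22, -0.10, -0.06 and -0.16 in Sel1l-/- 1 to 4. By this median WT 3 was the highest and WT 4 the lowest of the WT arrays. The same median over all genes stayed within 0.02 of 0 on every array. Normalization to alike distributions holds it there, so it is no yardstick for the members. WT 4 was the lowest WT array in 17 of the 36 members (31.5% of all genes), and WT 3 the highest in 16 (26.8%). The mean of the secreted members ran otherwise, with WT 4 highest (9.83) and WT 3 lowest (9.58). Both mice numbered 4 were below their group mean in 18 of the 36 members (36.8% of all genes), among them Dpp4, Pi16, Creb5, Gsn, Osr1 and Igfbp6. Both were above it in 6 (26.6% of all genes), which were Pdgfrb, Fap, Sema3c, Wisp2, Mgp and Lum. The mice numbered 1 were both below it in 17 (28.7%) and both above it in 7 (35.6%). Those numbered 2 were both below it in 5 (24.6%) and both above it in 10 (26.8%). Those numbered 3 were both below it in 7 (30.6%) and both above it in 16 (29.2%). Without WT 4, 3 members fell (Bmp4, Gsn and Osr1; 0.744% of all genes) and 2 rose (Cspg4 and Wisp2; 0.919%).

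**Figure D3:**
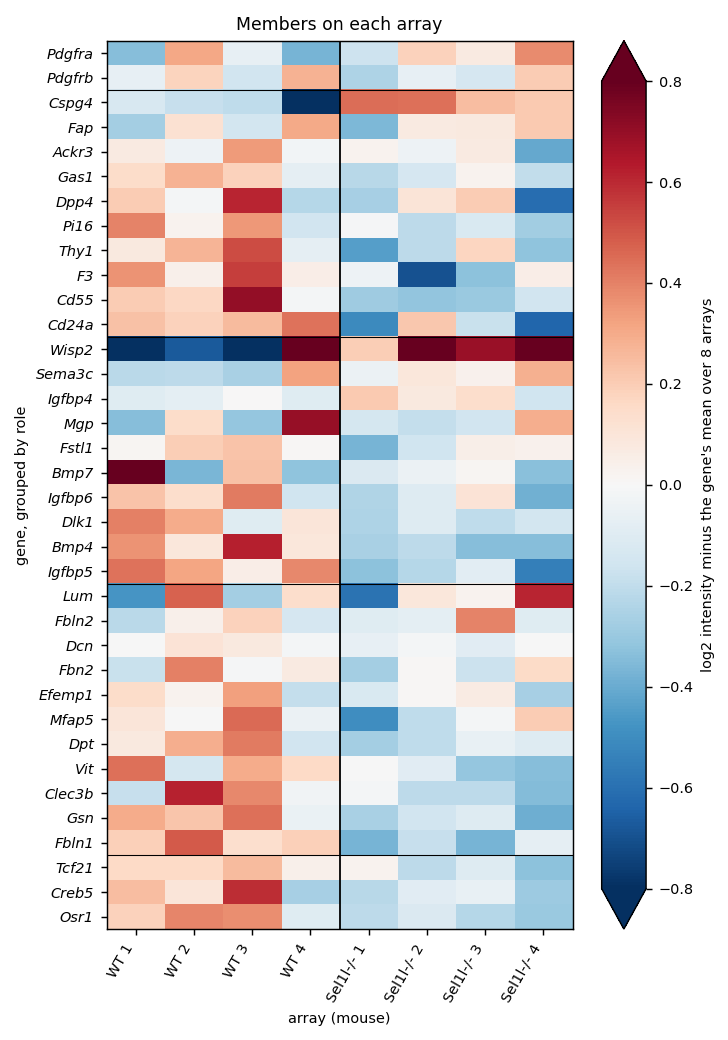
Log2 intensity of each member minus its mean over the 8 arrays (colour, clipped at ±0.8), with genes in rows by role and arrays in columns. The 4 WT arrays are left of the black line. Most rows are redder in WT and bluer in Sel1l-/- mice; Cspg4 and Wisp2 run the other way, and WT 4 differs from the other WT arrays in several rows.

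Other genes of the same cells and pathways were counted from further lists. Beside the counts below, 7.85% of all genes were lower and 7.15% higher at an unadjusted limma p under 0.05. Among 30 other progenitor and fibroblast genes, 23 had negative fold changes (median -0.20). Pcolce2, an enhancer of procollagen processing, fell (0.685% of all genes did), and none rose, with none higher and 11 lower at an unadjusted limma p under 0.05. Pcolce2 read 9.81, 10.20, 10.07 and 10.21 in WT and 8.82, 9.04, 9.05 and 8.90 in Sel1l-/- mice. The groups stood far apart, 10.07 ± 0.19 against 8.95 ± 0.11 (SD, n = 4), a 2.17-fold lower level (log2FC -1.12, standard error 0.10, adjusted p = 0.00334). Whichever single array was dropped, it still passed (adjusted p = 0.0180 at most) and with the replicate block (0.00461), but not with the letter block (log2FC -1.28, adjusted p = 0.104) or the number block (-1.12, 0.0544). It differed more than any of the 28 members with negative values, of which Igfbp5 had the largest difference.

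None of the 10 PDGF ligands and signalling genes passed by limma, with 3 lower and none higher at an unadjusted p under 0.05. Pdgfd, a PDGF ligand, had a log2FC of -0.41 (adjusted p = 0.0650, 0.0497 with the replicate block), and Plcg1, a phospholipase downstream of the receptors, one of -0.19 (adjusted p = 0.315). Of 22 measured BMP ligands, receptors and targets none passed, and 6 were lower and none higher at an unadjusted p under 0.05. Bmp6 had a log2FC of -0.62 (adjusted p = 0.215) and Bambi, a decoy receptor, one of -0.36 (adjusted p = 0.252). The median of that list was -0.18 and was 0.00 with the letter block.

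Of 12 genes of the insulin-like growth factor axis none passed by limma, with 3 lower and none higher at an unadjusted p under 0.05. Igf2 had a log2FC of -0.57 (adjusted p = 0.186) and Igfbp3 one of -0.41 (adjusted p = 0.281), and with the replicate block both passed (0.0464 and 0.0363). None of 14 microfibril and elastic fibre genes passed, with 5 lower and none higher unadjusted. Adamtsl4, a fibrillin-binding protein, had a log2FC of -0.55 (adjusted p = 0.0802, 0.0360 with the block) and Eln, elastin, one of -0.54 (adjusted p = 0.181). None of 9 other small leucine-rich proteoglycans passed, with 2 lower and none higher unadjusted, among them Fmod, fibromodulin, at -0.55 (adjusted p = 0.274) and Podn, podocan, at -0.45 (adjusted p = 0.330, 0.0282 with the block). Of 12 regulators of fat cell formation none passed, with 4 lower and 1 higher unadjusted. Gata2, which holds back that process, had a log2FC of -0.26 (adjusted p = 0.197) and the Wnt modulator Sfrp2 one of -0.73 (adjusted p = 0.209).

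Markers of other cells of the tissue were read on the same arrays. The mean of 9 mesothelial markers, the lining of visceral fat, was 9.87, 9.43, 10.26 and 9.10 in WT and 9.29, 9.43, 9.60 and 8.76 in Sel1l-/- mice. As with the median member, WT 3 was the highest and WT 4 the lowest WT array. This was not particular to the mesothelial list, since the adipocyte list also had WT 3 highest (12.80) and WT 4 lowest (12.49). All 9 had negative fold changes (median -0.38), none passed by limma, and 2 were lower at an unadjusted p under 0.05; with the letter block the median was 0.29. The mean of 8 endothelial markers was 10.28 to 10.50 on WT and 9.78 to 10.12 on Sel1l-/- arrays, and all 8 were lower at an unadjusted p under 0.05. Pecam1, an adhesion molecule of vessels, fell (log2FC -0.39, adjusted p = 0.0290), a call lost without any 1 array (adjusted p 0.0503 to 0.102).

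Of 9 pericyte and smooth muscle markers, 8 had negative fold changes, with list means of 9.72 to 9.87 on WT and 9.27 to 9.65 on Sel1l-/- arrays. Tagln, an actin-binding protein of smooth muscle, fell (log2FC -0.59, adjusted p = 0.0476, lost in 7 of the 8 fits without 1 array, up to 0.150 without Sel1l-/- 2). At an unadjusted limma p under 0.05, 6 of the list were lower and 1 higher. The higher one, Des, read 9.05 to 9.27 in WT and 9.32 to 9.42 in Sel1l-/- mice (log2FC 0.21, adjusted p = 0.161). Cspg4 thus differed in sign from most of this list, but not from Des. The lymphocyte list had means of 7.13 to 7.70 on WT and 6.57 to 7.39 on Sel1l-/- arrays. Of its 7 genes, 6 had negative fold changes (median -0.52, and -0.02 with the letter block). Only 1, Cd2, was lower at an unadjusted limma p under 0.05, and none was higher. Cd2 fell (log2FC -0.65, adjusted p = 0.0456, lost in 7 of the 8 fits without 1 array, up to 0.119 without WT 2). The letter block and the number block kept none of these 3 calls (Pecam1, Tagln and Cd2). Of 10 macrophage markers, 9 had positive fold changes (median 0.24), none passed by limma, and 1 was lower at an unadjusted p under 0.05, with means of 10.28 to 10.79 on WT and 10.47 to 11.03 on Sel1l-/- arrays. All 4 cell division genes had positive fold changes (median 0.56), none under an unadjusted limma p of 0.05. With the letter block the median was -0.13 for the macrophage list and -0.24 for the cell division list, so both turned in sign. The endothelial list kept its sign, at -0.30 with the letter block and -0.37 without. So did the pericyte and smooth muscle list, at -0.31 with it and -0.33 without. The part of these other cells in the values of the progenitor genes was not tested.

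**Figure D4:**
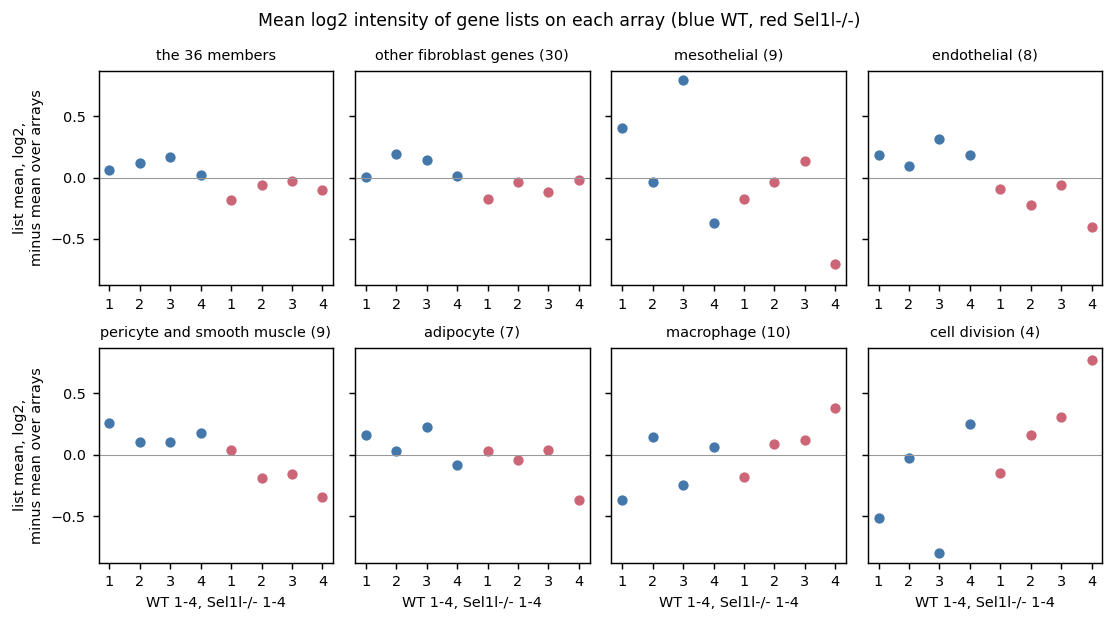
Mean log2 intensity of 8 gene lists on each array, as the difference from the list's mean over the 8 arrays (y axis), with WT 1 to 4 in blue and Sel1l-/- 1 to 4 in red (x axis). The number of genes is in brackets, and 1 point is 1 array. The means of the 36 members, the other fibroblast genes, the endothelial list and the pericyte list are higher in every WT array than in any Sel1l-/- array, and the mesothelial list overlaps.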

How the data were processed

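The deposited values are log2 intensities of 35556 probe sets on 1-colour whole-transcript arrays; the submitters' processing notes name RMA (background correction, quantile normalization, probe set summary), and no version or filter is stated. That they are log2 follows from their range, 1.72 to 13.9. RMA makes array distributions alike, so a shift of most genes would not show. Gene names came from GEO's platform annotation. In it, 21218 probe sets had 1 gene symbol, 1881 several and 12457 none, and 21185 of the single-gene ones matched RefSeq (GRCm38.p6) by Entrez number. Each of 18820 genes kept its probe set with the highest mean, and no dim gene was left out.

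Groups were compared in limma 3.58.1 under R 4.3.3 (lmFit, eBayes, prior degrees of freedom 2.60, two-sided, Benjamini-Hochberg over all genes), tested on simulated data. Figures used Python 3.11.15 and matplotlib 3.10.9. Each array carries a mouse code of its own. After removal of the group means, arrays sharing a title number 1 to 4 had correlations of 0.518, 0.107, 0.363 and 0.524, each over 0.1, so the number was taken as a pairing. The basis is these data, since no label says what a number shares. Unmatched numbers reached 0.328, above the 0.107 of the matched number 2, and mice sharing a title number share neither letter nor number of the mouse code. The replicate block was thus chosen from the values it was applied to. Its adjusted p values are not independent support. The letter and number of the mouse code, of unknown meaning, were tried as blocks; only letter F holds both genotypes.

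Members and gene lists were chosen with earlier results of these data known. Every measured member is named, and of each further list up to 3 genes past the threshold or, with none, the 2 with the smallest p. Cell type markers past the threshold are named too. Adipoq and Des, which did not pass, are named as well and were not in the check of single arrays below. Schwann and erythroid markers had 1 and 2 measured genes, too few to describe.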

Additional observations from a re-analysis of the deposited data

Results flagged for a closer look

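On 7 of 106 sets of 4 arrays (53 named genes in 2 groups), 1 array stood so far from the other 3 that its gap passed Dixon's 95% limit of 0.829 of the range, where chance flags about 5% of sets. Cspg4 read 8.26 in WT 4, against 8.89 to 8.96 in the other WT mice. Sema3c read 10.89 in WT 4, against 10.31 to 10.36. Fbln1 read 10.22 in WT 2, against 9.87 to 9.92. Igf2 read 7.77 in WT 1, against 7.03 in each of the others. Mgp read 9.01 in Sel1l-/- 4, against 8.53 to 8.58. Fbln2 read 11.14 in Sel1l-/- 3, against 10.65 to 10.67. Adamtsl4 read 7.75 in Sel1l-/- 4, against 7.90 to 7.93.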

How the results depend on the processing

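The direction held in every alternative that measured the gene for 24 of the 36 members, 20 of which were in all 17; Dlk1, Vit, Tcf21 and Fbn2 were too dim for 1 or both filters. In at least 1 alternative, 9 members passed the threshold. The share of all genes under that loose rule was not computed, so the count is not a result about the members. The replicate block alone called 3.85% of all genes. Members that fell numbered 1, but 3 with the arrays centred on their medians (0.818% of all genes), with the dimmest 25% (0.964%) or the dimmer 50% (1.81%) of genes left out, or with trend and robust moderation (0.675%). They numbered 5 with the replicate block and 5 with array weights (1.16%), and 0 with the letter block (0.0691%) and 0 with the number block (0.0159%). Leaving out 1 array gave 0 to 3. Members that rose numbered 0, and 1 each with the replicate block, the letter block and array weights, and 0 to 2 with 1 array left out. The median log2 fold change was -0.18 with the letter block and -0.36 to -0.21 with 1 array left out. Over all genes, 195 rose and 129 fell. These counts were 119 and 154 with centring, 358 and 367 with the replicate block, 347 and 219 with array weights, 7 and 13 with the letter block, 8 and 3 with the number block, and 66 to 244 and 31 to 140 with 1 array left out. The sign turned with the letter block in Dpp4 (0.14), Pi16 (0.04), Fap (-0.44), Ackr3 (0.02), Bmp7 (0.25), Sema3c (-0.30), Wisp2 (-0.37), Lum (-0.38), Efemp1 (0.14), Creb5 (0.10), Bambi (0.07), Igfbp3 (0.01) and Podn (0.17). It also turned in Fap with centring (-0.04) and in Lum with array weights (-0.04). With 1 array left out, values crossed 0 in Fap (-0.09 to 0.12), Bmp7 (-0.40 to 0.03), Mgp (-0.23 to 0.12), Lum (-0.12 to 0.28) and Fbln2 (-0.06 to 0.14). The letter block compares WT 4 with Sel1l-/- 1 and 2; otherwise the cause was not tested. The replicate block also brought Pdgfd, Igf2, Igfbp3, Adamtsl4 and Podn past the threshold, and changed no other call of a named gene beside those given above.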
